A study of Mus musculus and Sus scrofa with 30 samples.

Results

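The genes described here are 10 antioxidant enzymes: catalase (Cat), 3 superoxide dismutases (Sod1, Sod2, Sod3), 3 glutathione peroxidases (Gpx1, Gpx3, Gpx4) and 3 peroxiredoxins (Prdx1, Prdx3, Prdx5). They were taken by symbol, ignoring case, from 2 deposited tables of 24843 mouse and 34307 pig genes, and each symbol had 1 row in each table. All are listed as protein-coding. In the mouse table Cat is on chromosome 2, Sod1 on 16, Sod2 on 17, Sod3 on 5, Gpx1 on 9, Gpx3 on 11, Gpx4 on 10, Prdx1 on 4 and both Prdx3 and Prdx5 on 19. Several of these genes, Prdx1 and Gpx4 among them, have processed pseudogenes that share sequence with them, and how reads with several matches were counted is not given in the sources used here. RNA was sequenced in bulk from mouse 3T3-L1 cells, an embryonic fibroblast line that can form adipocytes, and from porcine dedifferentiated fat (DFAT) cells, fat cells that have returned to a fibroblast-like state. All libraries were taken on day 5 of induction. The groups of each system were a DMSO vehicle, dicoumarol, magnolol, both compounds together (the combination) and rosiglitazone, with 3 libraries each and 30 libraries in all. Dicoumarol, an anticoagulant of the coumarin class, blocks NQO1, a quinone reductase. Magnolol is a plant lignan found in magnolia bark, and rosiglitazone is an agonist of PPARγ, the receptor that drives adipocyte formation. The sources used here do not give their doses. Every 3T3-L1 group, vehicle included, received dexamethasone (75 nM), IBMX (37.5 µM) and insulin (0.75 µg/mL) in 10% serum. Every DFAT group received biotin (20 µM), pantothenate (10 µM), IBMX (12.5 µM), GlutaMAX (2 mM) and dexamethasone (0.5 µM) in 2% serum, so the vehicle libraries are induced cells, not untreated ones. The labels do not say whether the replicates were separate cultures, and the p-values then measure only the spread between these libraries, which may be technical.

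Superoxide leaks from the respiratory chain and is made by oxidases. Superoxide dismutases convert it to hydrogen peroxide, Sod1 in the cytosol, Sod2 in the mitochondrial matrix and Sod3 outside the cell. Catalase, in peroxisomes, splits the peroxide to water and oxygen. Glutathione peroxidases reduce peroxides with glutathione and peroxiredoxins with thioredoxin. Adipocyte formation brings a large growth of mitochondria, and catalase is abundant in fat cells.

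Values are counts divided by DESeq2 size factors by the authors (normalized counts). Fold changes are on the scale of log2(value + 1), with limma over all genes whose mean was at least 10. A gene is said to have risen or fallen where the Benjamini-Hochberg adjusted p was under 0.05. In 3T3-L1, 9 of the 10 genes were tested, since Gpx3 was under the minimum, and in DFAT all 10. Levels are not compared between genes, because the tables list no transcript length. They are not compared between the systems either, because the tables were normalized separately. Depths estimated from the low values were 22.8 to 30.7 M reads in 3T3-L1 libraries and 44.8 to 70.5 M reads in those of DFAT. Adipocyte markers were present in both systems, 10 of 10 above the minimum, and rose with rosiglitazone, 10 of 10 in each.

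In 3T3-L1 cells the mitochondrial peroxiredoxin Prdx3, the dismutases Sod1 and Sod2 and the cytosolic peroxiredoxin Prdx1 about doubled with rosiglitazone (1.88- to 2.28-fold). Prdx3, Sod2 and Prdx1 also rose with the combination, by less. Sod1 did not pass there in the fit without a replicate block and passed with the block. Catalase, Gpx1, Gpx4 and Sod3 passed in none of the 3T3-L1 comparisons in the fit without a replicate block. Of all genes tested, 20.3% rose with rosiglitazone in 3T3-L1, while at most 6.11% rose in DFAT with any compound. In DFAT cells none of the 10 genes rose against vehicle with any compound. Beside such low shares, this count does not set the 10 apart from other genes. Catalase fell in DFAT with dicoumarol, with magnolol and when both were given. Sod2 and Gpx1 fell with magnolol and the combination, Prdx5 with magnolol and Prdx1 with the combination. With rosiglitazone the secreted enzymes Sod3 and Gpx3 fell, and so did Gpx1 and Prdx5.

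The core of the antioxidant response element, the sequence bound by NRF2, was searched in the mouse promoters because that element is the textbook control of this gene class. Promoters came from RefSeq on GRCm38.p6, from 250 bases before to 50 bases after each start. The 9 genes found there (Sod3 had no entry) had 12 such windows. The core searched, TGACNNNGC on either strand, was in 2 of the 12 windows (16.7%), 1 each of Prdx1 and Sod1, and in 12.4% of all 32851 promoters of that length. Counted by window, the members' share was thus near that of all promoters. Several of the 12 windows were of Gpx4, none with the core, and by gene 2 of 9 had it. The share by gene was not computed for all promoters. The 2 stretches are shown for reference. The match began 133 bases before the Prdx1 start (window chr4:116685436-116685504, plus strand) and 56 bases before the Sod1 start (window chr16:90220676-90220744, plus strand). Both lie on the reverse strand, so the capitals show the reverse complement of the core.
Prdx1: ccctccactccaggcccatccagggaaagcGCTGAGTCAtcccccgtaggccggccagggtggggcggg
Sod1: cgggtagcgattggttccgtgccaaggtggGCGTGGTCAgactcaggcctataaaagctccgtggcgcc
The PPARγ-type element DR1, a direct repeat of AGGTCA with 1 base between the copies, was in none of the 12 windows and in 0.0396% of all promoters. These matches are descriptions of letters in a window; binding was not measured.

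Of the dismutases in 3T3-L1, Sod1 had 3505, 2750.5 and 3539 normalized counts in the 3 vehicle libraries and 8365, 5935 and 7064 with rosiglitazone. Every rosiglitazone library was above every vehicle library, and the rise was 2.17-fold (log2 1.12, SE 0.125, n = 3 per group, limma adjusted p = 5.8e-06). The combination libraries, at 4510.4, 3874 and 4552, lay between these 2 groups without touching either. Their 1.33-fold difference from vehicle did not pass the test (log2 0.41, limma adjusted p = 0.075). Sod2 had 2289, 1965 and 2058 normalized counts with vehicle, 2924, 2461 and 2929 with the combination and 4109, 3617 and 4143 with rosiglitazone. Its 3 groups did not overlap either. The rosiglitazone rise was 1.88-fold (limma adjusted p = 7e-06). Sod3, the extracellular form, had 967, 699 and 1647 normalized counts with vehicle and 715, 666 and 1277 with rosiglitazone. The groups overlapped (log2 −0.29, 95% interval −0.97 to 0.39), and in each of the 5 groups replicate 3 was the highest.

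Catalase in 3T3-L1 had 13579, 20503 and 18460.2 normalized counts with vehicle and 12927, 13779 and 16576 with rosiglitazone. The lowest vehicle library lay among the rosiglitazone ones. The difference of −0.27 on the log2 scale had a 95% interval of −0.61 to 0.07 and did not pass the test.

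Of the glutathione peroxidases in 3T3-L1, Gpx1, the cytosolic form, ranged from 2449 to 3737 normalized counts over all 15 libraries with overlapping groups. Gpx4, which reduces lipid peroxides in membranes, had 1512, 1094 and 1191 normalized counts with vehicle and 1483, 1600.1 and 1457 with rosiglitazone, a difference of 0.27 on the log2 scale that did not pass the test. Gpx3, the secreted form, was at the edge of detection, with values from 0 to 5.07 and exactly 0 in 4 libraries, in 4 of the 5 groups. No fold change is given for it.

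Of the peroxiredoxins in 3T3-L1, Prdx3 had 2229.6, 1987 and 2176 normalized counts with vehicle, 2629, 2345 and 2489 with dicoumarol, and 3133, 2598 and 2725 with magnolol. It had 3273, 3035 and 3170.25 with the combination and 5235, 4492 and 4873 with rosiglitazone. All 4 compound groups lay wholly above vehicle. The rise was 2.28-fold with rosiglitazone (log2 1.19, SE 0.0893, limma adjusted p = 2.3e-07), 1.48-fold with the combination (adjusted p = 0.0016 by limma) and 1.32-fold with magnolol (adjusted p = 0.038 by limma). With dicoumarol the 1.17-fold difference did not pass the test. Prdx1 had 7629.9, 6719 and 7768 normalized counts with vehicle, 9104, 8919.7 and 10580.1 with the combination and 14325, 14010 and 15315 with rosiglitazone. These 3 groups did not overlap, and the rosiglitazone rise was 1.98-fold (limma adjusted p = 8.2e-07). Prdx5, found in mitochondria, peroxisomes and cytosol, had 2938, 2160 and 3241 normalized counts with vehicle and 4031, 3174 and 3363 with rosiglitazone. The groups overlapped, and the 1.28-fold rise (adjusted p = 0.035 by limma) was the smallest of those that passed.

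**Figure D1:**
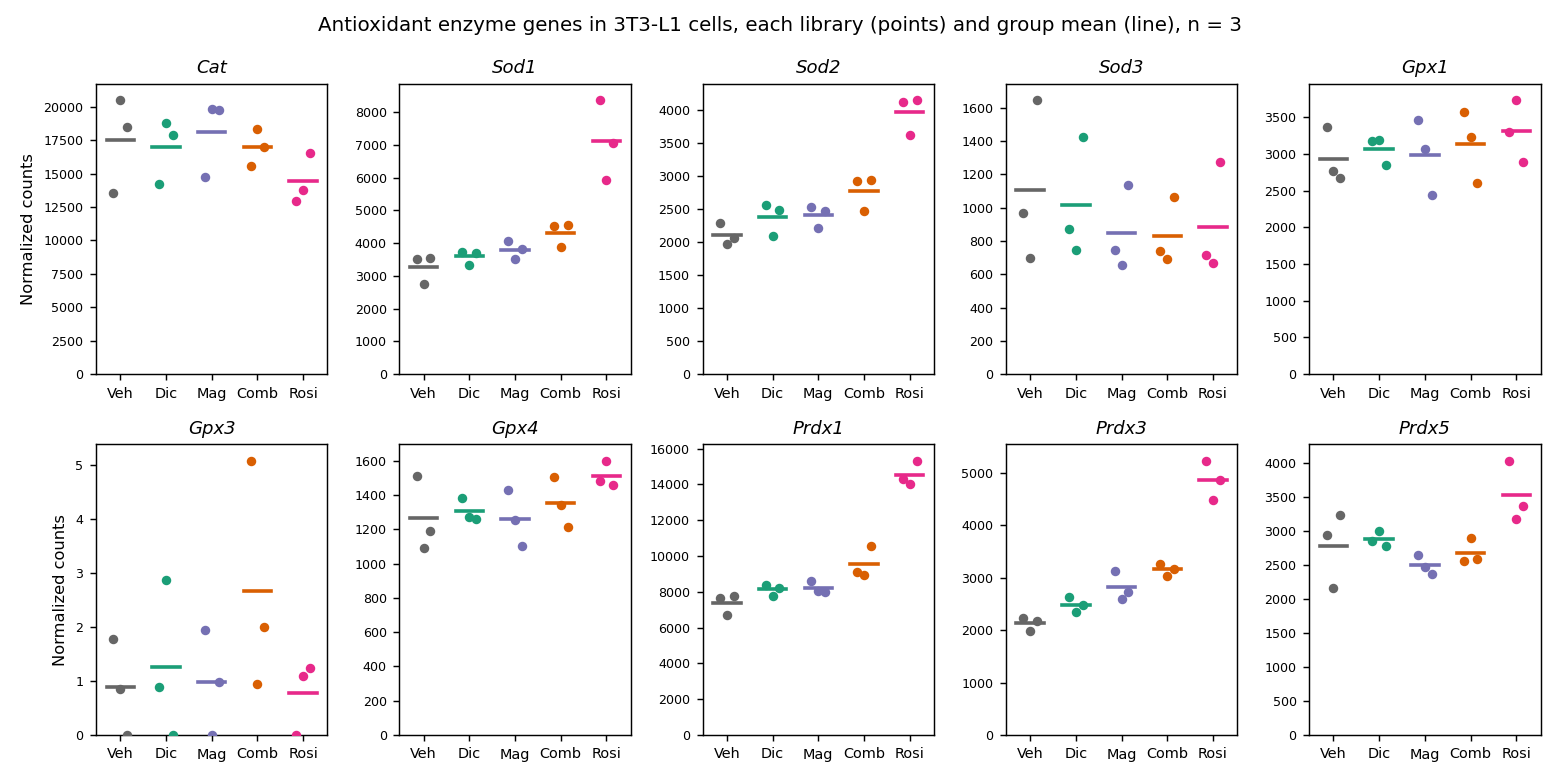
Normalized counts of the 10 genes in 3T3-L1 cells, with a panel per gene, the 5 groups on the x axis, a point per library (n = 3) and a line at the group mean. The rosiglitazone libraries of Sod1, Sod2, Prdx1 and Prdx3 lie above all others, Gpx3 stays at or under 5.07, and Sod3 is spread within each group.

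Counted over the tested genes in 3T3-L1, 5 of 9 rose and 0 fell with rosiglitazone, where 20.3% of all genes tested rose. With the combination 3 of 9 rose (Prdx3, Prdx1 by 1.29-fold, Sod2 by 1.32-fold), against 3.86% of all genes. With magnolol 1 of 9 rose, against 1.07%. These shares of all genes also moved with a library left out. Genes called in either direction numbered 193 with magnolol. They numbered 22 to 119 there without vehicle replicate 1, 2 or 3 or magnolol replicate 1 or 3. They numbered 821 with the combination and 286 to 526 without vehicle replicate 2 or 3 or combination replicate 1 or 3. With dicoumarol limma called 0 of 9 and 0% of all genes, with 1 gene at an unadjusted p under 0.05. The median log2 fold change of the 9 genes was 0.35 for rosiglitazone, 0.11 for the combination, 0.06 for magnolol and 0.07 for dicoumarol, beside medians of all genes within 0.01 of 0. The departures of same-numbered libraries from their group means correlated, so the numbers were taken to pair these libraries, which the labels do not state. With the number as a block 8 of 9 passed with rosiglitazone and 5 of 9 with the combination. The genes added were Cat (log2 −0.27, adjusted p = 0.0227 by limma), Sod3 (−0.29, adjusted p = 0.0175 by limma) and Gpx4 (0.27, adjusted p = 0.0195 by limma) with rosiglitazone. With the combination they were Sod1 (0.41, adjusted p = 0.00113 by limma) and Sod3 (−0.35, adjusted p = 0.0218 by limma). In that fit 49.8% and 13.5% of all genes passed in either direction.

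Several of the weaker 3T3-L1 calls were lost with a library left out, a fit that also has fewer libraries to test with. The magnolol call of Prdx3 was lost without vehicle replicate 1, 2 or 3 (limma adjusted p = 0.0763, 0.135 and 0.0966) and without magnolol replicate 1 or 3 (limma adjusted p = 0.241 and 0.110). For the combination, Sod2 lost its call without vehicle replicate 2 or 3 or combination replicate 1 or 3 (limma adjusted p of 0.103 to 0.180). Prdx1 lost it without vehicle replicate 2, combination replicate 1 or combination replicate 3 (limma adjusted p of 0.0626 to 0.108). Prdx5 lost its rosiglitazone call without vehicle replicate 2, rosiglitazone replicate 1 or rosiglitazone replicate 3 (limma adjusted p = 0.202, 0.162 and 0.0515). Without vehicle replicate 1, Cat (adjusted p = 0.0394 by limma) and Gpx4 (adjusted p = 0.0148 by limma) passed. The calls of Prdx1, Prdx3, Sod1 and Sod2 with rosiglitazone and of Prdx3 with the combination held in all 12 alternatives, library omissions included.

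Sums of cell type markers and the mitochondrial share also differed between these groups. The summed level of the 10 adipocyte markers was 46948 to 65781 normalized counts in the 3T3-L1 vehicle libraries, 68268 to 102716 with dicoumarol, 97359 to 142545 with magnolol, 122985 to 194087 with the combination and 340717 to 592184 with rosiglitazone. The 10 stromal markers summed to 635342 to 665890 with vehicle, 552849 to 615223 with dicoumarol, 525223 to 610040 with magnolol, 471456 to 544579 with the combination and 329792 to 440067 with rosiglitazone. Mitochondrial genes took 5.22% to 7.00% of the vehicle libraries, 5.94% to 7.72% of those with dicoumarol, magnolol or the combination and 7.66% to 14.3% of the rosiglitazone ones. In bulk RNA, fewer cells of a type and less RNA per cell cannot be told apart, and the part of these shifts in the results was not tested. Macrophage markers summed to at most 216 normalized counts, muscle markers to at most 114, endothelial markers to at most 29.5 and epithelial markers to at most 5.96. Among these the macrophage gene Lyz2 fell with magnolol, the combination and rosiglitazone at an adjusted p under 0.05 by limma, and its part in the results was not tested.

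Set directly against the combination, rosiglitazone gave higher levels of Sod1 (1.64-fold), Prdx3 (1.54-fold), Prdx1 (1.53-fold), Sod2 (1.43-fold) and Prdx5 (1.31-fold) in 3T3-L1, with limma adjusted p from 0.00078 to 0.044. That is 5 of 9 genes, against 9.53% of all genes higher. The Prdx5 call was lost without any of the 3 combination libraries (limma adjusted p of 0.0569 to 0.124) and without rosiglitazone replicate 1 or 3 (limma adjusted p = 0.207 and 0.0676). Between the combination and dicoumarol limma called 0 of 9, with 3 at an unadjusted p under 0.05, and 0.0254% of all genes. With the replicate block Prdx3 passed there (log2 0.35, adjusted p = 0.00355 by limma), beside 3.62% of all genes. Between the combination and magnolol limma called 0 of 9, with 1 at an unadjusted p under 0.05, and 0% of all genes; the 9 log2 differences ran from −0.08 (Cat) to 0.21. The interaction, which asks whether the combination differs from the sum of the separate log2 effects, was called by limma for 0 of 9 and 0% of all genes, with 0 at an unadjusted p under 0.05. The 9 values ran from −0.05 to 0.07. For Prdx3 the interaction was −0.05 with a 95% interval of −0.32 to 0.21, and for Sod1 0.04 with an interval of −0.34 to 0.41.

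In DFAT cells the superoxide dismutases went different ways. SOD2 had 7372, 6362 and 7081 normalized counts with vehicle, 5943, 5661 and 5069 with magnolol, and 5388, 5084 and 4276 with the combination. Both groups lay wholly below vehicle, and SOD2 fell by 19.9% with magnolol (log2 −0.32, adjusted p = 0.046 by limma). It fell by 29.3% with the combination (log2 −0.50, SE 0.0869, limma adjusted p = 0.00086). With rosiglitazone SOD2 stood at 7678, 8006 and 7757, a difference of 0.17 from vehicle with a 95% interval of −0.01 to 0.36. SOD3 had 10499, 10780 and 8526 normalized counts with vehicle and 6382, 6036 and 5490.5 with rosiglitazone. The groups were far apart and SOD3 fell by 39.7% (log2 −0.73, SE 0.0832, limma adjusted p = 8.5e-06). With dicoumarol SOD3, at 8057, 8111 and 7557, was also below every vehicle library, but the difference of −0.32 had an adjusted p of 0.058 by limma. SOD1 stayed between 2669 and 3632 normalized counts in all 15 libraries and passed in no comparison with vehicle.

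Catalase (CAT) in DFAT had 30858, 29123 and 29359 normalized counts with vehicle and 23098, 22470.1 and 21384 with dicoumarol. The magnolol libraries had 20876, 24295 and 22271 and the combination libraries 25077, 25085 and 24188. These 9 compound libraries were all below the lowest vehicle library. With rosiglitazone CAT had 32472, 32579 and 28496 normalized counts, around the vehicle values. CAT fell by 25.1% with dicoumarol (log2 −0.42, SE 0.0677, limma adjusted p = 0.0022). With magnolol it fell by 24.6% (log2 −0.41, limma adjusted p = 0.0012) and with the combination it fell by 16.8% (log2 −0.26, adjusted p = 0.018 by limma). The combination level was thus above what the 2 separate falls add up to. The interaction was 0.56 (SE 0.0957, 95% interval 0.36 to 0.76, adjusted p = 0.024 by limma), and CAT was the 1 of 10 genes so called, against 0.0405% of all genes called higher. That call held in 5 of 18 alternatives. It was lost without any of 10 of the 12 libraries, all but magnolol replicate 2 and combination replicate 3 (limma adjusted p of 0.0538 to 0.131).

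Of the glutathione peroxidases in DFAT, GPX1 had 15905, 14609.8 and 13156 normalized counts with vehicle and 10882, 10457 and 8711 with the combination. The groups did not overlap, and GPX1 fell by 31.3% (log2 −0.54, SE 0.0940, limma adjusted p = 0.00086). It also fell by 22.5% with magnolol (adjusted p = 0.032 by limma) and fell by 20.7% with rosiglitazone (adjusted p = 0.028 by limma). GPX3 had 18287, 19883 and 16734 normalized counts with vehicle and 11576, 14372 and 9580.1 with rosiglitazone. Every rosiglitazone library was below every vehicle one, and GPX3 fell by 36.0% (log2 −0.64, SE 0.138, limma adjusted p = 0.0045). The combination libraries of GPX3, at 14730.1, 16597 and 12127, were also below vehicle but did not pass the test. GPX4 ranged from 4276 to 5881 normalized counts over all 15 libraries and passed in no comparison with vehicle; the combination difference was −0.01 with a 95% interval of −0.20 to 0.18.

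Of the peroxiredoxins in DFAT, PRDX1 and PRDX5 fell and PRDX3 passed in no comparison with vehicle. PRDX1 had 8821, 8277 and 9179 normalized counts with vehicle and 7577, 7789 and 6407 with the combination, without overlap, and fell by 17.4% (log2 −0.28, SE 0.0691, adjusted p = 0.016 by limma). PRDX5 had 1790.2, 1749 and 1719.8 normalized counts with vehicle, 1327, 1539.9 and 1330.3 with magnolol and 1489, 1453 and 1275 with rosiglitazone. Both compound groups lay below vehicle. PRDX5 fell by 20.4% with magnolol (adjusted p = 0.037 by limma) and fell by 20.0% with rosiglitazone (adjusted p = 0.021 by limma). PRDX3, the gene with the widest range in 3T3-L1, had 6088, 6184 and 6613 normalized counts with vehicle and 6900.1, 7449.8 and 6387 with rosiglitazone. Those groups overlapped, and the difference of 0.13 had a 95% interval of −0.08 to 0.34.

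**Figure D2:**
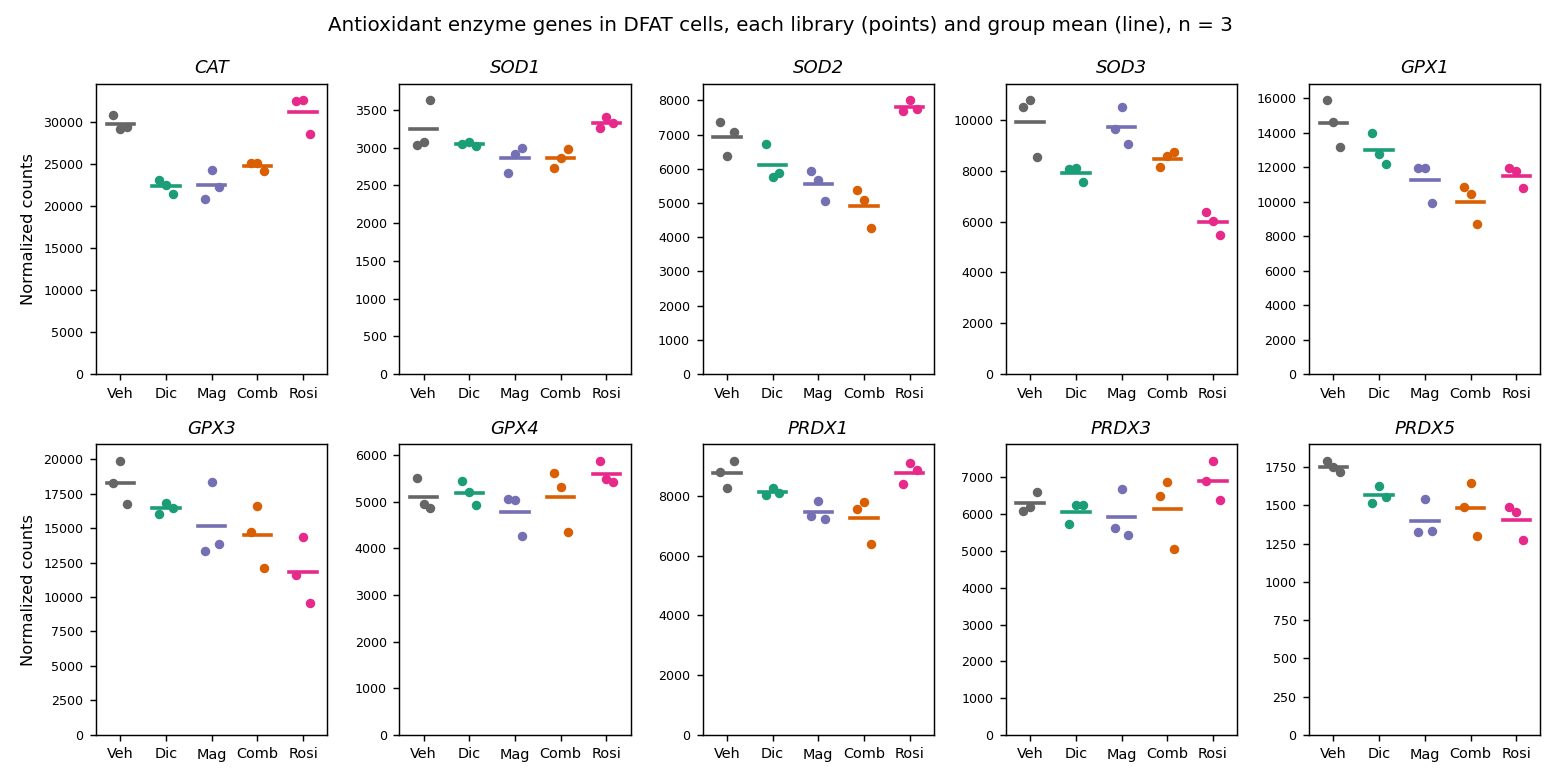
Normalized counts of the 10 genes in DFAT cells, with a panel per gene, the 5 groups on the x axis, a point per library (n = 3) and a line at the group mean. CAT is lower with dicoumarol, magnolol and the combination but not with rosiglitazone, while SOD3 and GPX3 are lowest with rosiglitazone.

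Counted over the 10 genes in DFAT, dicoumarol lowered 1 (1.03% of all genes tested fell), magnolol 4 (1.27%), the combination 4 (4.06%) and rosiglitazone 4 (5.02%). None of the 10 rose, where 0.911%, 2.96%, 6.11% and 5.8% of all genes did. The median log2 fold change was −0.16, −0.26, −0.26 and 0.02 in that order, beside medians of all genes from −0.01 to 0.00034. With magnolol and with the combination all 10 differences were below 0, called or not. With rosiglitazone 6 of 10 were above 0.

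Among DFAT calls, CAT with dicoumarol and magnolol, GPX1 and SOD2 with the combination, and SOD3 and GPX3 with rosiglitazone held in all 12 alternatives. Others were lost with a library left out, a fit that also has fewer libraries to test with. The magnolol call of SOD2 held without vehicle replicate 2 alone of the 6 libraries, and its other omissions gave limma adjusted p of 0.0514 to 0.198. That of PRDX5 held without magnolol replicate 2 alone, with the other omissions at limma adjusted p of 0.0767 to 0.160. That of GPX1 was lost without vehicle replicate 1 or 2 or magnolol replicate 3 (limma adjusted p of 0.0788 to 0.170). With the combination, CAT lost its call without vehicle replicate 1 or combination replicate 3 (limma adjusted p = 0.0795 and 0.0623), and PRDX1 without vehicle replicate 1 or 3 or combination replicate 3 (limma adjusted p of 0.0557 to 0.0817). With rosiglitazone, GPX1 and PRDX5 lost theirs without vehicle replicate 1 or 2 or rosiglitazone replicate 3 (limma adjusted p of 0.0612 to 0.144). Calls were gained for SOD3 without vehicle replicate 3, with dicoumarol (adjusted p = 0.00617 by limma) and the combination (adjusted p = 0.0102 by limma), and for PRDX5 with the combination without combination replicate 2 (adjusted p = 0.0282 by limma).

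In DFAT the 10 adipocyte markers summed to 24610.3 to 26371 normalized counts with vehicle, 29717 to 32023 with dicoumarol, 43415 to 50697 with magnolol, 65848 to 71860 with the combination and 87105 to 93930 with rosiglitazone. Stromal markers (9 of 10 in the table) summed to 4783200 to 4873870 with vehicle, 5883700 to 5934750 with dicoumarol, 6268780 to 7591350 with magnolol, 6183190 to 7581200 with the combination and 4202950 to 4587410 with rosiglitazone. Mitochondrial genes took 9.58% to 10.2% of the vehicle libraries, 10.7% to 11.7% with dicoumarol, 10.5% to 12.9% with magnolol, 12.2% to 15.1% with the combination and 6.85% to 10.8% with rosiglitazone. In the dicoumarol, magnolol and combination groups, where CAT fell, both of these marker sums and the mitochondrial share lay wholly above vehicle. Single stromal markers were mixed: of 8 tested, the log2 change was above 0 for 6 in each of these groups. Limma called 1 higher and 1 lower with dicoumarol, and 3 higher and 1 lower with magnolol and with the combination. Of all genes 0.911%, 2.96% and 6.11% rose and 1.03%, 1.27% and 4.06% fell in that order. The part of these shifts in the results was not tested. The other marker sums stayed low, with at most 239 for endothelial, 156 for muscle, 117 for macrophage and 16.7 for epithelial markers. Among them the muscle gene Des rose with the combination (1.81, adjusted p = 0.0046 by limma), and endothelial Kdr and epithelial Cdh1 were at 0 in every library.

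Between DFAT groups, the levels of SOD2 were 1.60-fold higher with rosiglitazone than with the combination, CAT 1.26-fold, PRDX1 1.21-fold and SOD1 1.17-fold, while SOD3 was lower (log2 −0.51). That is 4 of 10 higher, against 8.24% of all genes, and 1 of 10 lower, against 8.79%, with limma adjusted p from 3.3e-05 (SOD2) to 0.032 (SOD1). The replicate numbers were taken to pair these groups, from correlated departures in the data. With the block 7 of 10 passed, adding GPX1 (log2 0.21, adjusted p = 0.00477 by limma) and GPX3 (−0.30, adjusted p = 0.0141 by limma), where 24.9% of all genes passed in either direction. SOD1 lost its call without combination replicate 1 or 2 or rosiglitazone replicate 2 or 3 (limma adjusted p of 0.0715 to 0.124), and PRDX1 without combination replicate 3 (adjusted p = 0.0503 by limma). GPX3 passed without rosiglitazone replicate 2 (adjusted p = 0.0308 by limma). The combination against dicoumarol gave 1 of 10 lower, GPX1 (log2 −0.38, adjusted p = 0.041 by limma), against 0.344% of all genes. The 10 log2 differences ran from −0.38 (GPX1) to 0.15 (CAT). This call held without combination replicate 1, when SOD2 passed too (adjusted p = 0.0461 by limma), and was lost without any of the other 5 libraries (limma adjusted p of 0.0620 to 0.241). Against magnolol limma called 0 of 10 for the combination, with 2 at an unadjusted p under 0.05, and 0.621% of all genes; the 10 log2 differences ran from −0.20 to 0.14.

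**Figure D3:**
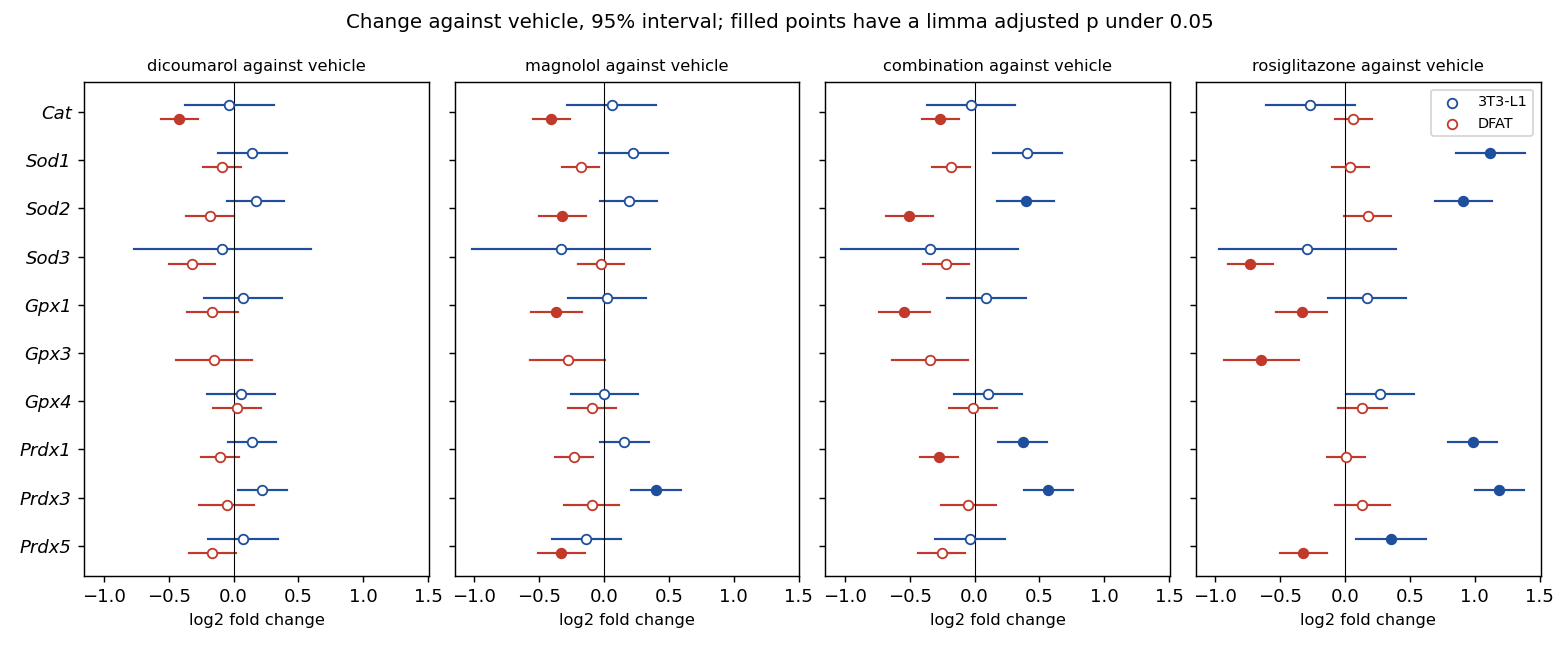
Log2 fold change against vehicle (x axis) with its 95% interval for each gene (y axis), with a panel per compound, 3T3-L1 in blue and DFAT in red. Filled points passed at a limma adjusted p under 0.05, and all filled 3T3-L1 points are to the right of 0 and all filled DFAT points to the left.

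Whether the 2 systems differed was tested on the difference of the effects, DFAT minus 3T3-L1, over 9368 genes tested of 12155 symbols found once in each table. Each effect was formed within its own table. Species, induction mix and cell source differ together between the systems and cannot be told apart. Of 9 genes, 6 differed with rosiglitazone, against 38.7% of all genes tested. Of 9 genes, 5 differed with the combination, against 11.6%, and 3 with magnolol, against 3.28%. With dicoumarol limma called 0 of 9, against 0.0961%, with 3 at an unadjusted p under 0.05. All 14 called differences were negative, so that the DFAT effect was the lower one. This model has no replicate block. With the block for the 3T3-L1 libraries, whose numbers were taken to pair them, 18 passed, a fit chosen after seeing the data. Those added were Cat (−0.47, adjusted p = 0.0077 by limma) and Sod1 (−0.40, adjusted p = 0.0081 by limma) with magnolol and Sod3 (−0.44, adjusted p = 0.0062 by limma) and Cat (0.33, adjusted p = 0.017 by limma) with rosiglitazone, the last with the DFAT effect higher. In that fit the share of all genes that passed was 47% for rosiglitazone, 19.7% for the combination, 8.41% for magnolol and 1.32% for dicoumarol.

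The mitochondrial and cytosolic enzymes that rose in 3T3-L1 gave most of these differences. With rosiglitazone the difference was −1.08 for Sod1 (SE 0.146, adjusted p = 2.3e-06 by limma), −1.06 for Prdx3, −0.98 for Prdx1, −0.74 for Sod2 and −0.68 for Prdx5. With the combination Sod2 differed most (−0.90, SE 0.139, adjusted p = 0.00012 by limma), with a log2 change of 0.40 in 3T3-L1 beside −0.50 in DFAT. These 5 rosiglitazone differences, and the combination ones of Sod1, Sod2, Prdx1 and Prdx3, passed without any 1 of the libraries compared. The other 5 each lost their call without at least 4 of the libraries compared, and without DFAT vehicle replicate 1 the total was 9 in place of 14. The Gpx1 difference with rosiglitazone was lost without 3T3-L1 vehicle replicate 2 or 3, 3T3-L1 rosiglitazone replicate 2, DFAT vehicle replicate 1 or DFAT rosiglitazone replicate 3 (limma adjusted p of 0.0623 to 0.0752). With the combination it was lost without 3T3-L1 vehicle replicate 3, 3T3-L1 combination replicate 1, DFAT vehicle replicate 1 or DFAT combination replicate 3 (limma adjusted p of 0.0569 to 0.0783). With magnolol, Sod2 lost its call without 3T3-L1 vehicle replicate 2 or 3, 3T3-L1 magnolol replicate 1 or 3, DFAT vehicle replicate 1 or 3 or DFAT magnolol replicate 2 or 3 (limma adjusted p of 0.0597 to 0.123). Prdx1 kept its call without 3T3-L1 vehicle replicate 3 or DFAT vehicle replicate 2 and lost it without any of the other 10 libraries (limma adjusted p of 0.0507 to 0.136). Prdx3 kept its call without 3T3-L1 vehicle replicate 1, 3T3-L1 magnolol replicate 2 or DFAT magnolol replicate 2 and lost it without any of the other 9 (limma adjusted p of 0.0634 to 0.157). Without the block catalase was not called as different with any compound. With rosiglitazone its difference was 0.33 (SE 0.181, adjusted p = 0.15 by limma), and it passed without 3T3-L1 vehicle replicate 1 (0.50, adjusted p = 0.0195 by limma). Gpx3 could not be tested for want of a 3T3-L1 level, being at or near 0 in every library there. In the DFAT libraries it had 9580.1 to 19883 normalized counts. The tables were normalized separately, so no size is given for that gap.

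**Figure D4:**
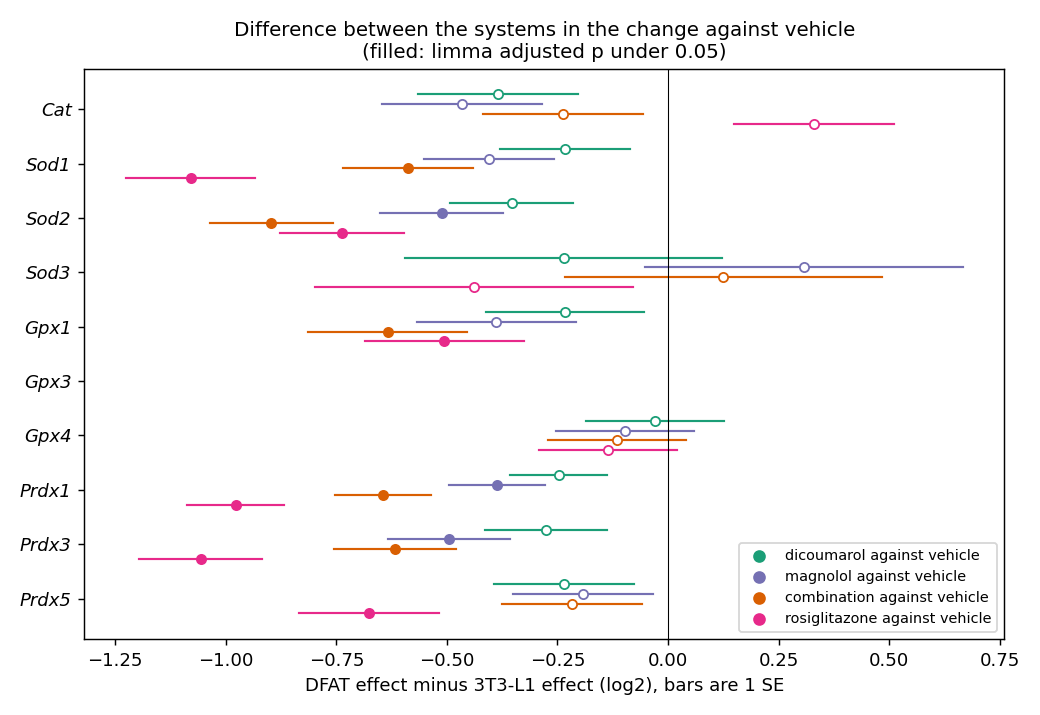
DFAT effect minus 3T3-L1 effect on the log2 scale (x axis, bars are 1 SE) for each gene (y axis) and each compound against vehicle (colours), with filled points at a limma adjusted p under 0.05. The 14 filled points all lie to the left of 0, from −0.39 to −1.08; Gpx3 has no value.

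The partners of these enzymes were read from lists. The list of thiol reducing partners holds enzymes that return peroxiredoxins and glutathione to their working form. It also holds other genes, among them those of cystine import, glutathione synthesis and iron-sulfur cluster assembly. Of the list, 9 of 19 tested rose and 4 fell with rosiglitazone in 3T3-L1, where 20.3% of all genes rose and 19.9% fell. Glrx5, a mitochondrial glutaredoxin of iron-sulfur cluster assembly, rose by 1.18 on the log2 scale, and Txn2, the mitochondrial thioredoxin that reduces Prdx3, by 0.97. Slc7a11, the cystine importer for glutathione synthesis, fell by 0.89. The combination raised 1 of 19 (Glrx5, 0.63), against 3.86% of all genes. In DFAT the combination lowered 5 of 16 and raised 1, where 4.06% of all genes fell and 6.11% rose. SRXN1, sulfiredoxin, which repairs over-oxidized peroxiredoxins, fell by 0.75. TXNRD1, the cytosolic thioredoxin reductase, fell by 0.60, and GCLC, the catalytic subunit of glutathione's first synthesis step, by 0.48. Magnolol lowered the same 3 genes (SRXN1 by 0.50, TXNRD1 by 0.45, GCLC by 0.42) and dicoumarol 2 of them (SRXN1 by 0.32, TXNRD1 by 0.34). The shares of all genes that fell were 1.27% with magnolol and 1.03% with dicoumarol. With rosiglitazone 2 of 16 rose (SLC7A11 by 0.68, TXNRD3 by 0.25) and SESN1 fell by 0.36, where 5.8% of all genes rose and 5.02% fell. The median log2 fold change of the list was 0.33 in 3T3-L1 with rosiglitazone and −0.09 in DFAT with the combination.

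Among the other peroxidases Prdx6, a cytosolic peroxiredoxin that also has phospholipase activity, fell in both systems. In 3T3-L1 its log2 change was −0.40 with magnolol, −0.46 for the combination and −1.04 with rosiglitazone, against the direction of Prdx1 and Prdx3. Of all genes tested 0.153%, 1.36% and 19.9% fell in these comparisons. In DFAT the log2 change of PRDX6 was −0.48 for dicoumarol, −0.38 for magnolol and −0.57 for the combination. Of all genes tested 1.03%, 1.27% and 4.06% fell in these. PRDX6 was not called in DFAT with rosiglitazone. In all, 1 of 6 rose (Prdx2, a cytosolic peroxiredoxin, 0.40) and 2 of 6 fell (Prdx6 and Pxdn, the matrix peroxidase peroxidasin, −0.55) with rosiglitazone in 3T3-L1, where 20.3% of all genes rose and 19.9% fell. In DFAT PXDN rose with magnolol (0.43, where 2.96% of all genes rose) and the combination (0.37, where 6.11% rose), and GPX8, an endoplasmic reticulum peroxidase, fell by 0.25 with rosiglitazone.

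Genes of selenoprotein synthesis, on which Gpx1, Gpx3 and Gpx4 depend for selenocysteine, were called in 3T3-L1 with rosiglitazone at shares near or below those of all genes (20.3% rose and 19.9% fell). In 3T3-L1 with rosiglitazone 2 of 10 rose (Sephs2, which makes selenophosphate, 0.58, and Trnau1ap, a partner of the selenocysteine tRNA, 0.41) and 1 fell (Selenop, the selenium carrier, −1.04). In DFAT limma called 0 of 8 with each compound, with 1 at an unadjusted p under 0.05 for magnolol, the combination and rosiglitazone and 0 for dicoumarol. Of all genes tested there, 0.911% rose and 1.03% fell with dicoumarol, and 2.96% rose and 1.27% fell with magnolol. With the combination 6.11% rose and 4.06% fell, and with rosiglitazone 5.8% and 5.02%.

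Of the enzymes that produce superoxide or peroxide, 1 of 9 rose and 4 of 9 fell with rosiglitazone in 3T3-L1, where 20.3% of all genes rose and 19.9% fell. Those named by size are Xdh, xanthine dehydrogenase (−1.08), Nox4, an NADPH oxidase (−0.94), and Maoa, a monoamine oxidase (−0.63). In DFAT 2 of 8 rose with rosiglitazone, against 5.8% of all genes, among them ERO1A, an oxidase of the endoplasmic reticulum (0.48).

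The genes whose log2 levels followed the widest-ranging members most closely over the 15 libraries of a table were found by Pearson's r, as a description, since libraries of a group share treatment and depth. In 3T3-L1, among 11616 candidates, Prdx3 was followed by Mdh1 (r = 0.996), Prxl2a (0.995) and Pdhb (0.994), and Sod1 by Cox6b1 (0.992), Hadhb (0.990) and Emc6 (0.990). In DFAT, among 11352 candidates, SOD3 was followed by PLXNC1 (0.937) and PIK3C2B (0.932), and SOD2 by ZBTB9 (0.961), ATF4 (0.947) and SRXN1 (0.938). The group means of these members spanned 1.19 (Prdx3), 1.12 (Sod1), 0.73 (SOD3) and 0.68 (SOD2) on the log2 scale.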

How the data were processed

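Poly(A) RNA libraries with strand marking by dUTP were made from 3T3-L1 and DFAT cells, per the labels' protocols. The authors used STAR, DESeq2 and bcl2fastq 2.19.1.403 and named the build GRCm38, also for the pig libraries, per the submitters' processing notes. The sources used here do not give the counter and the annotation. As signal values the authors deposited gene counts divided by DESeq2 size factors, in 1 table per species. The mouse starts listed matched the GRCm38 annotation at hand for only 2.18% of 24070 genes, so the listed positions are not printed. Low values were whole multiples of 1 read, within 0.02 up to 20 reads, for 81.4% to 82.7% (3T3-L1) and 90.3% to 91.3% (DFAT), too few to recover reads, and no count test was run.

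The fit, by limma 3.58.1 (R 4.3.3), took log2(value + 1) of genes averaging 10 or more over a table's 15 libraries, with all 5 groups in 1 model, with a variance trend. Tests were two-sided, adjusted by Benjamini-Hochberg over all genes tested. Differences between systems used 1 model over 30 libraries. The fits were tested on simulated data with known changes and noise independent between libraries, so correlation by replicate number was not covered. The 10 genes and the lists were chosen with earlier results of these data known. The naming rule takes all 10 in every comparison; where few or none were called, the others are given by counts and ranges. It takes from each list at most the 3 called genes of largest change per comparison with vehicle.

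The labels number the replicates in every group. In 3T3-L1 the departures of libraries from their group means correlated above 0.1 in all 30 same-numbered pairs (lowest 0.106, median 0.300, against a median of −0.142 over 60 other pairs). The numbers were therefore taken to pair them, though the labels do not say what same-numbered libraries share. In DFAT all same-numbered pairs were above 0.1 only among magnolol, combination and rosiglitazone. Alternatives were a pseudocount of 5, no filter, the replicate block, only the compared groups, no variance trend, quantile normalization and each library left out; leaving out libraries and blocking by replicate number in the test between systems were added after seeing the data. Python 3.11.15, numpy 2.4.6, pandas 2.3.3 and matplotlib 3.10.9 served for tables and plots. Values of 2 genes that the naming rule selected are not reported here.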

Additional observations from a re-analysis of the deposited data

Results flagged for a closer look

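The effect of a compound differed between the systems, by limma's test of the difference (DFAT minus 3T3-L1, log2 scale), in 14 cases. Of the 9 genes tested, 6 differed with rosiglitazone (38.7% of all genes), 5 with the combination (11.6%) and 3 with magnolol (3.28%). Some of the 14 lost their call with a library left out. With rosiglitazone the differences were −1.08 (Sod1), −1.06 (Prdx3), −0.98 (Prdx1), −0.74 (Sod2), −0.68 (Prdx5) and −0.51 (Gpx1). With the combination they were −0.90 (Sod2), −0.64 (Prdx1), −0.63 (Gpx1), −0.62 (Prdx3) and −0.59 (Sod1). With magnolol they were −0.51 (Sod2), −0.50 (Prdx3) and −0.39 (Prdx1). In DFAT cells the effects of dicoumarol and magnolol on CAT differed from additivity by the interaction term, at 0.56, where 0.0405% of all genes were called higher. That call held in 5 of 18 alternatives.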

How the results depend on the processing

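Of 2586 values recomputed for single genes, 2406 kept their side of the threshold, 145 lost a call, 35 gained one and 0 called values reversed. Most of the 2586 belonged to values not called in the main fit, which could gain a call but not lose one. Values called in neither fit could change sign and still count among the 2406. A pseudocount of 5 changed none. In 3T3-L1 the count of genes called with magnolol went from 1 to 0 with no filter, only the compared groups, no variance trend or quantile normalization (0 to 1 with a library left out). The combination count went from 3 to 5 with the replicate block and to 1 with only the compared groups (1 to 3 with a library left out). With the block the rosiglitazone count went from 5 to 8 and that of the combination against dicoumarol from 0 to 1. In DFAT the dicoumarol count went from 1 to 2 with only the compared groups (1 to 2 with a library left out). The magnolol count went from 4 to 1 with no filter or no variance trend and to 2 with quantile normalization (1 to 3 with a library left out). With a library left out the combination count was 2 to 5 and the rosiglitazone count 2 to 4. The combination against dicoumarol went from 1 to 0 with no filter, no variance trend or quantile normalization (0 to 2 with a library left out). Rosiglitazone against the combination went from 5 to 3 with only the compared groups. The CAT interaction went from 1 to 0 with no filter, no variance trend or quantile normalization (0 to 1 with a library left out). The 14 differences between systems were 9 to 14 with a library left out, 12 with no filter and 11 with no variance trend or quantile normalization. They were 18 with the replicate block in 3T3-L1 and 20 with a block in both systems, which added Sod2 with dicoumarol and Gpx1 with magnolol. The cause of these changes was not tested.

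In some DFAT comparisons the departures of same-numbered libraries did not all correlate above 0.1, and pairing by number is not settled there. With the replicate block the counts that moved among those were 2 for dicoumarol, 6 for magnolol, 8 for the combination and 2 for the combination against dicoumarol. Over all 14819 genes tested the same fit called 670, 1360, 2643 and 893 in that order. The block changed no other call than those given here or beside the results.

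Over all genes the block raised the 3T3-L1 calls from 0 to 79 (dicoumarol), 193 to 780 (magnolol), 821 to 2124 (combination), 4 to 569 (combination against dicoumarol) and 2879 to 5234 (rosiglitazone against the combination). In DFAT it raised them from 288 to 670, 626 to 1360, 1508 to 2643 and 348 to 893 in the first 4 of these comparisons, from 92 to 290 (combination against magnolol) and from 12 to 34 (interaction). With only the compared groups the calls fell to 102 (3T3-L1 magnolol), 0 (3T3-L1 combination against dicoumarol), 1465 (3T3-L1 rosiglitazone against the combination), 44 (DFAT combination against magnolol), from 2523 to 1336 (DFAT rosiglitazone against the combination) and from 1604 to 936 (DFAT rosiglitazone). With no variance trend they were 80 (3T3-L1 magnolol), 0 (3T3-L1 combination against dicoumarol), 57 (DFAT combination against magnolol) and 5 (DFAT interaction). No filter gave 7 for the DFAT interaction, and quantile normalization 8 for the 3T3-L1 combination against dicoumarol. With a library left out, other counts over all genes that moved over 1.5 times were, in 3T3-L1, 1 (dicoumarol, without vehicle replicate 1), 1077 to 1889 (rosiglitazone against the combination, without any combination library or rosiglitazone replicate 1) and, for the combination against dicoumarol, 46 without combination replicate 2 and 0 without combination replicate 1 or 3 or dicoumarol replicate 2 or 3. In DFAT they were 153 to 165 (dicoumarol, without vehicle replicate 1 or any dicoumarol library), 400 and 413 (magnolol, without vehicle replicate 1 or magnolol replicate 3), 175 to 214 (combination against dicoumarol, without any dicoumarol library or combination replicate 3), 44 to 54 (combination against magnolol, without magnolol replicate 1 or combination replicate 1 or 3) and 5 to 7 (interaction, without vehicle replicate 1, any dicoumarol library, magnolol replicate 3 or combination replicate 2). With 3 libraries per group, small changes of these genes are not resolved, and Gpx3 in 3T3-L1 was too low to test.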
